A study of Homo sapiens with 8 samples.

Results

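The noncoding-only RefSeq loci are the genomic loci at which the deposited transcript table of SQ20B cells lists noncoding RNA entries (identifiers starting with NR) and no protein-coding entry (identifiers starting with NM). Members were chosen by comparing the locus of each of the 3221 NR entries with those of the 21591 NM entries, and 10 much-studied long noncoding RNAs (NEAT1, MALAT1, MIR210HG, H19, GAS5, SNHG1, SNHG12, TUG1, CYTOR and EPB41L4A-AS1) were left out by name. This left 1171 transcripts at 956 loci, of 24812 transcripts in all. SQ20B cells are an established human line of head and neck squamous cell carcinoma. Poly(A)-selected RNA of 4 normoxic replicates was compared with that of 4 replicates incubated at 0.5% O2 for 16 h, and the cells and medium were otherwise the same. For each transcript the table gives 1 FPKM value per condition (fragments scaled for transcript length and library size), made over the 4 replicates, so the spread between replicates is unknown here and no test was run. A difference between conditions is therefore a description of these pooled values. Fewer cells and less RNA per cell cannot be told apart in such bulk samples.

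Noncoding RNAs of this kind fall into a few families. Antisense RNAs are transcribed from the strand opposite a coding gene or head to head with it. Host genes carry small nucleolar RNAs (snoRNAs, guides for the chemical modification of ribosomal RNA) or microRNAs (short repressors of messenger RNAs) in their introns or exons, and the spliced host RNA is often short-lived. Transcribed pseudogenes are copies of coding genes that have lost the reading frame. Intergenic long noncoding RNAs lie outside coding genes. Some are known targets of the hypoxia-inducible factors (HIFs), transcription factors that accumulate when oxygen is low and bind DNA at a core ACGTG or GCGTG.

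Of the 1171 transcripts, 1093 were named through their RefSeq identifier and 35 by position, and 43 stayed unnamed. They comprised 565 intergenic, 326 pseudogene, 208 antisense, 40 host gene and 32 small RNA transcripts. The intergenic class holds what the other classes left over, and its members need not lie far from coding genes. It includes many divergent transcripts (-DT), which start head to head with a coding gene, such as NUP50-DT, 64 bases from NUP50. No locus of the table overlapped another, so no member overlapped a listed coding locus. The members included at least 48 transcripts of genes that the current annotation counts as coding, and 17 on alternate haplotypes or unplaced contigs. The 48 were counted only among members named through their identifier. Several members shared a locus at 142 of the 956 loci, with at most 6 at a locus, so transcripts are not independent of each other. The cells matched their label: 6 of 7 squamous epithelial markers were listed, with KRT5, a basal keratin, at 398 FPKM in normoxia and 442 in hypoxia, whereas 0 of 5 markers of leukocytes, endothelium and fibroblasts were. The 4 hypoxia response genes checked were higher in hypoxia, among them CA9, the pH-regulating carbonic anhydrase, at 0.694 and 21.6 FPKM.

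Because HIFs bind at ACGTG and GCGTG, the promoters of 3 members from the results below are shown as examples of a promoter with and without these letters. RefSeq promoters (GRCh38.p14) reach from 250 bases before the start of the gene to 50 after it. LUCAT1 (chr5:91314353-91314652, minus strand) and OLMALINC (chr10:100373326-100373625, plus strand) were higher in hypoxia, and DANCR (chr4:52712144-52712443, plus strand) was lower. Capitals mark either motif on either strand, where CACGT and CACGC are their reverse complements.
LUCAT1: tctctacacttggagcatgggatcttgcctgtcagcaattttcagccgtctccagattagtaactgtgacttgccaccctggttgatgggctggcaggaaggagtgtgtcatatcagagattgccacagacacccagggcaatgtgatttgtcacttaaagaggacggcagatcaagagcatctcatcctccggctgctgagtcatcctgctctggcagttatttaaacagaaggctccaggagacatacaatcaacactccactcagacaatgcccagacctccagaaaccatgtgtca
OLMALINC: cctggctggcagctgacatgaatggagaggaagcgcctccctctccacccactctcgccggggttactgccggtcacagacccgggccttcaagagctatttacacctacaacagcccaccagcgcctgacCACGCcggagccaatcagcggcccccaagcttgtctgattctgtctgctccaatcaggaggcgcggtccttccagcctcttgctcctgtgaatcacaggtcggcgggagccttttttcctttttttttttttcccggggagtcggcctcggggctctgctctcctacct
DANCR: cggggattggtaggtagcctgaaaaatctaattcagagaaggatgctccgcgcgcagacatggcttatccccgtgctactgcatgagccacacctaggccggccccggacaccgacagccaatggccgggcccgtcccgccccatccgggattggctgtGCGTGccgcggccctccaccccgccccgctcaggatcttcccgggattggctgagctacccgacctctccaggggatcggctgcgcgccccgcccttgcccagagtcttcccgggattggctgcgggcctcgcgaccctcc
The LUCAT1 promoter held neither motif. That of OLMALINC held CACGC at position -119 from the start, and that of DANCR held GCGTG at position -91.

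The H/ACA snoRNAs of the TAF1D host gene on chromosome 11 are shown because neighbours within this 1 cluster differed in their change. H/ACA snoRNAs guide pseudouridine formation, and most end in ACA followed by 3 bases. The sequences are those of hg19 at the listed loci, read 5′ to 3′ on the minus strand, with that ACA in capitals where it stands 3 bases from the end. SNORA40 (chr11:93468276-93468402) and SNORA25 (chr11:93463681-93463812) were lower in hypoxia, and SNORA8 (chr11:93465527-93465665) was not.
SNORA40: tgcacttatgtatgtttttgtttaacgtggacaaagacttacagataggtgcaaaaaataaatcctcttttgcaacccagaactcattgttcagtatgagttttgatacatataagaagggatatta
SNORA25: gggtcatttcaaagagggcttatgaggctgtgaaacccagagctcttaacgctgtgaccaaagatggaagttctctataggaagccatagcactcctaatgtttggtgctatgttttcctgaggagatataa
SNORA8: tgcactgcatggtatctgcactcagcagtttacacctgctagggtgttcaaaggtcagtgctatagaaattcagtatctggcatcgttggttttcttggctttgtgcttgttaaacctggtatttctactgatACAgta
The mature sequence of hsa-miR-5188, from the single microRNA gene among the members, is given by RefSeq with its seed (bases 2 to 8) in capitals.
hsa-miR-5188: aAUCGGACccauuuaaaccggag

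Of the 1171 transcripts, 655 had a mean of at least 0.5 FPKM over the conditions and were compared. A change is log2((hypoxia + 0.1)/(normoxia + 0.1)) of the FPKM values, which understates the change of low transcripts, and a transcript was called where the change was at least 2-fold. In hypoxia 32 members were called higher (4.89%) and 27 lower (4.12%), close to the whole table, in which 3.7% of 18190 compared transcripts were called higher and 3.69% lower. The median change was 0.02 over the members and -0.09 over coding transcripts. At a limit of 1.5-fold, 75 of the 655 members were higher and 73 lower, against 10.5% and 14.3% of the whole table. The sum of the members' FPKM was 17178 in normoxia and 14471 in hypoxia, or 3.20% and 3.16% of the sum of the table. Most of it belonged to small RNAs (13107 and 10705 FPKM), and 18 members had a mean of at least 100 FPKM.

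**Figure D1:**
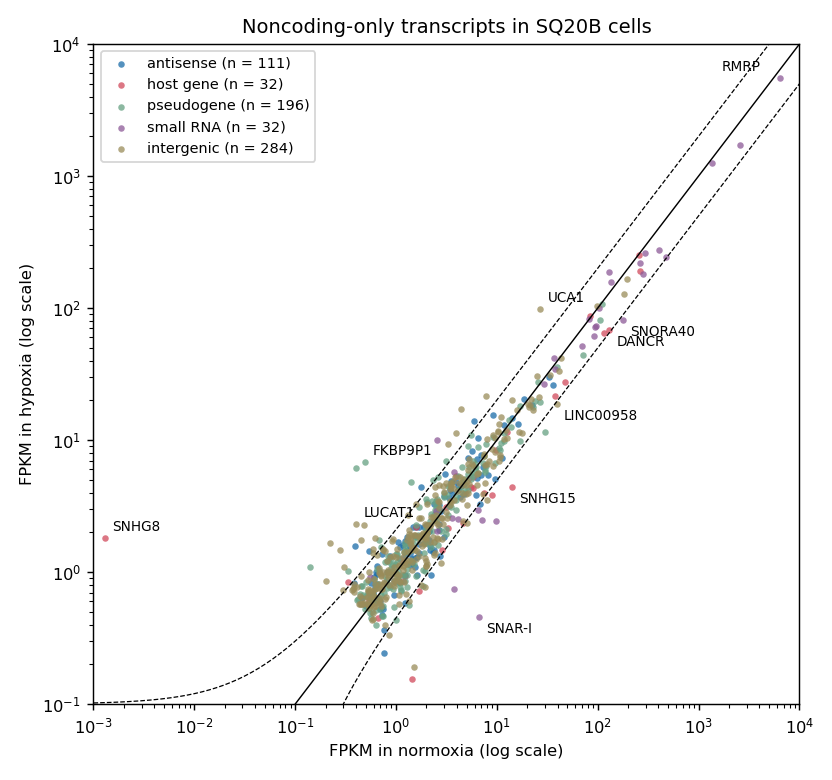
FPKM in normoxia (x axis) and hypoxia (y axis), both on log scales, of the 655 compared noncoding-only transcripts, 1 point each, coloured by class. The solid line marks equal values and the dashed curves mark 2-fold differences after 0.1 is added. Most points lie between the curves. UCA1 and the FKBP9P1 transcripts lie above them, and SNHG15 and SNAR-I below.

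The classes did not move alike. The median change was 0.07 in intergenic, 0.06 in pseudogene and 0.03 in antisense transcripts, whereas it was -0.38 in host gene and -0.34 in small RNA transcripts. Higher values in hypoxia were found for 162 of 284 intergenic, 104 of 196 pseudogene and 59 of 111 antisense transcripts, but for 8 of 32 host gene and 8 of 32 small RNA transcripts. The classes overlapped: the quartiles of the change were -0.20 and 0.35 in intergenic and -0.85 and -0.01 in host gene transcripts. When both conditions were scaled to the same FPKM sum, each change moved up by about 0.23, so that changes between -0.23 and 0 turned sign and the median of the whole table went from -0.09 to 0.13. Under that scaling the host gene and small RNA medians stayed below 0, at -0.15 and -0.12. The 516 transcripts under 0.5 FPKM were higher in 318 cases and lower in 198, at levels where the added 0.1 FPKM weighs heavily.

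**Figure D2:**
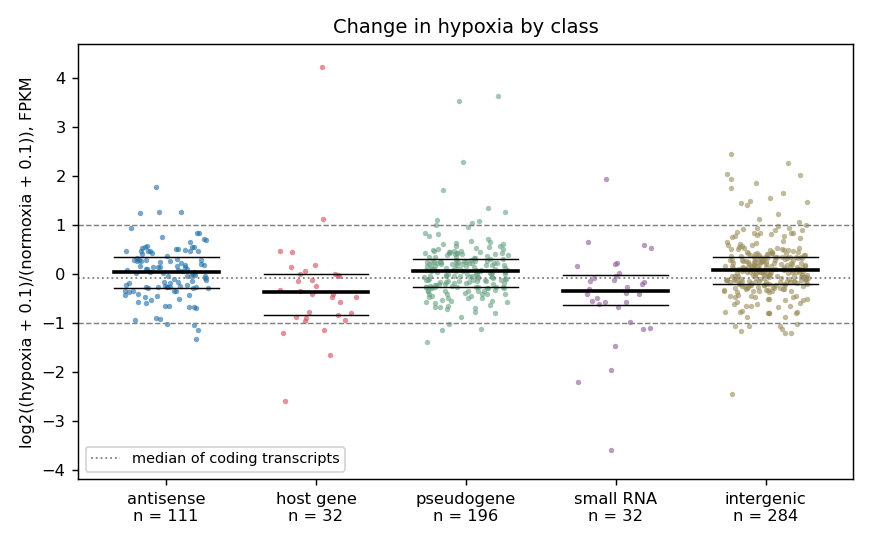
Change in hypoxia (y axis, log2 scale with 0.1 FPKM added) of each compared transcript, by class (x axis). Thick bars are medians and thin bars quartiles, dashed lines mark 2-fold changes, and the dotted line is the median of coding transcripts. The host gene and small RNA medians lie below the dotted line and the other 3 above it.

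Intergenic transcripts held 16 of the 32 transcripts called higher and 9 of the 27 called lower, or 5.63% and 3.17% of the 284 compared, against 3.7% and 3.69% of the whole table. With a pseudocount of 1 FPKM 8 were higher and 2 lower, a setting at which no share of the whole table is given. CAND1.11, an uncharacterised long noncoding RNA at chr11:10329860-10452220, measured 0.221 FPKM in normoxia and 1.65 in hypoxia. This is a 5.46-fold difference. Its locus ends 937 bases from that of ADM, the gene of the vasodilator peptide adrenomedullin and a known HIF target, which measured 16.8 and 49.2 FPKM. Both were higher in hypoxia, the noncoding RNA at a far lower level.

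LUCAT1, lung cancer associated transcript 1, is a stress-responsive long noncoding RNA at chr5:90598803-90610219. Its 2 listed transcripts measured 0.404 FPKM in normoxia and 2.32 in hypoxia (NR_103549, 4.81-fold), and 0.281 and 1.46 (NR_103548, 4.10-fold). The nearest listed coding locus, 54322 bases away, was that of ARRDC3, an arrestin-domain protein that acts in receptor trafficking, at 13.2 and 90.9 FPKM. The shares of the 2 LUCAT1 transcripts in their sum hardly moved, with NR_103549 at 59.0% in normoxia and 61.4% in hypoxia.

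UCA1, urothelial cancer associated 1, reported in bladder cancer as a HIF target, was the most abundant of the intergenic transcripts called higher. It measured 27.0 FPKM in normoxia and 98.5 in hypoxia (3.64-fold, chr19:15939757-15947131). Other intergenic transcripts with several FPKM in both conditions were also higher, as read from their values after the fact. LINC01559 measured 4.41 and 17.3 FPKM, and OLMALINC, a primate long noncoding RNA next to the fatty acid desaturase gene SCD, measured 3.95 and 11.4. MANCR, named for its association with mitosis, measured 3.28 and 9.26 FPKM. All 4 stood above the 2-fold limit at levels well over that of the added 0.1 FPKM.

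Among intergenic transcripts called lower, NUP50-DT, divergent from the nuclear pore gene NUP50 (chr22:45529639-45559662), had the lowest change. Its transcript NR_038956 measured 1.502 FPKM in normoxia and 0.191 in hypoxia (5.50-fold lower), while the main transcript of the locus, NR_038957, measured 10.4 and 6.88. The locus as a whole went from 11.9 to 7.08 FPKM, less than 2-fold. LINC01776 (chr1:98676267-98738214) measured 1.93 and 0.773 FPKM, and ZSCAN12 (chr6:28346598-28367544), a zinc finger gene listed here as noncoding but coding in the current annotation, 2.81 and 1.17. LINC00958, chosen after its values were seen as the most abundant of this group, measured 39.3 FPKM in normoxia and 18.8 in hypoxia. The 2 most abundant intergenic members were SMIM26 (194 and 165 FPKM, chr20:18548073-18550203) and SMIM30 (NR_015442, 181 and 127 FPKM, chr7:112756773-112758637), whose symbols stand for small integral membrane proteins although their entries are noncoding. Neither reached the 2-fold limit. Neither was counted among the members coding in the current annotation, since their identifiers gave no gene type.

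**Figure D3:**
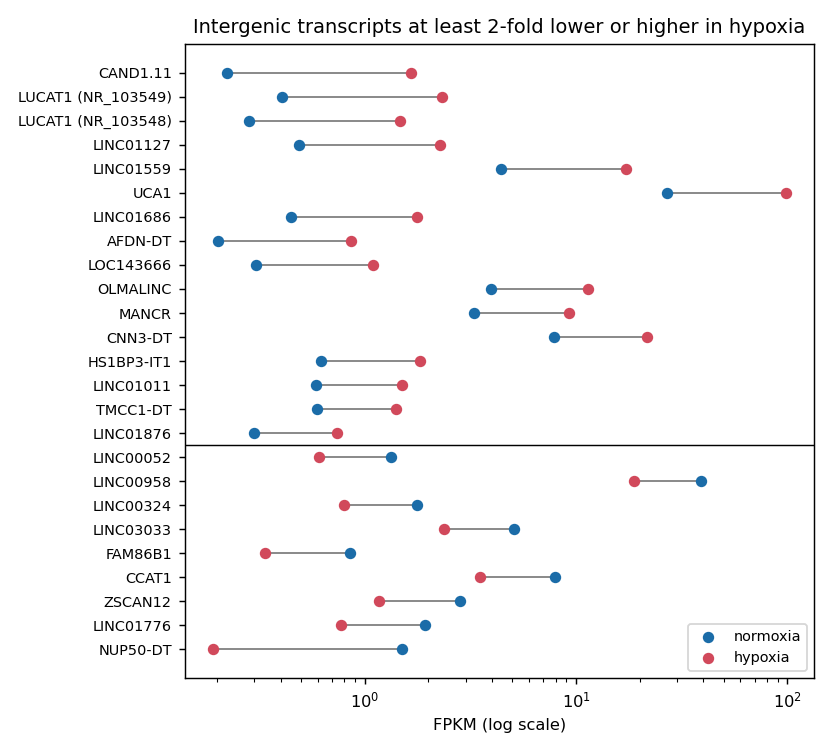
FPKM (x axis, log scale) in normoxia (blue) and hypoxia (red) of the 25 intergenic transcripts at least 2-fold higher (above the line) or lower (below it) in hypoxia, 1 row each, ordered by change. UCA1 and LINC00958 lie farthest to the right, at 27.0 and 98.5 and at 39.3 and 18.8 FPKM.

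A list of 32 noncoding RNAs linked to hypoxia, drawn up with earlier results of these data known, had 15 genes among the members, 13 of them at a mean of at least 0.5 FPKM. These 13 genes had 17 compared transcripts, of which 3 were called higher (UCA1 and both LUCAT1 transcripts) and 0 lower, or 17.6% against 3.7% of the whole table called higher, at a median change of 0.06 against -0.09 over the whole table. The 2 LUCAT1 transcripts share a locus, and with a pseudocount of 1 FPKM NR_103548 had a change of 0.94, under 2-fold. LINC00511 came nearest to the limit on the higher side, at 0.445 FPKM in normoxia and 0.941 in hypoxia (1.91-fold, chr17:70594180-70636611). HCP5, listed on an alternate haplotype of chromosome 6, measured 7.99 and 10.2 FPKM, and TP53TG1, named as a target gene of p53, measured 25.2 and 30.6. LINC00963 (2.35 and 2.60 FPKM), OIP5-AS1 (32.8 and 30.1) and the microRNA host gene MIR4435-2HG (95.9 and 98.3 over its transcripts) differed by less than 1.5-fold. So did LINC00662 (2.35 and 1.86 FPKM), the X-linked FTX (0.541 and 0.610) and MIR22HG, the miR-22 host (7.19 and 6.33 over its transcripts). The 2 transcripts of HOTAIRM1, a long noncoding RNA, differed in their change. NR_038367 measured 17.9 and 11.3 FPKM, a change of -0.66, and NR_038366 measured 3.45 and 3.24, a change of -0.09. The lowest change on the list was that of DANCR, described among the host genes.

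Antisense transcripts had 4 called higher and 4 called lower of 111 compared, 3.60% each, near the 3.7% and 3.69% of the whole table. The class joins unlike parts. Of 56 transcripts named as antisense, 4 were called higher (7.14%) and 3 lower (5.36%). Of 55 placed in the class by strand alone, 0 were called higher and 1 lower (1.82%). With a pseudocount of 1 FPKM 1 of the whole class was higher and 0 were lower, with no share of the whole table given at that setting. SPACA6-AS1 (chr19:52188616-52208443) measured 0.388 FPKM in normoxia and 1.56 in hypoxia (3.40-fold), FZD10-AS1 (chr12:130636138-130646223) 0.536 and 1.43, and SLC44A3-AS1 (chr1:95123089-95285837) 1.78 and 4.38. SPACA6, on the strand opposite SPACA6-AS1, has a noncoding entry in the same locus, at 1.32 and 2.70 FPKM. Whether the counting used strand is not stated, so reads of SPACA6 and SPACA6-AS1 cannot be told apart with certainty. The coding gene FZD10, a Wnt receptor, measured 1.17 and 2.29 FPKM, and SLC44A3, of the choline transporter-like family, measured 23.3 and 39.0. In both pairs the noncoding and the coding side were higher in hypoxia. CCDC18-AS1, the fourth transcript called higher, measured 5.90 and 14.0 FPKM while CCDC18 went the other way, from 36.8 to 29.0. Its locus lies 31379 bases from that of CCDC18 and 110 bases from that of DR1, which measured 135 and 108 FPKM.

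Among those called lower, USP2-AS1 (chr11:119252488-119369944) measured 0.767 FPKM in normoxia and 0.243 in hypoxia (2.53-fold lower), beside USP2, a ubiquitin protease gene, at 0.241 and 0.113. PRKCQ-AS1 (NR_036503, chr10:6622387-6627323) measured 2.20 and 0.946 FPKM, while PRKCQ, the gene of a T-cell protein kinase C, stood at 2.67 and 2.62. GAS5-AS1 (chr1:173832386-173837125) measured 6.85 and 3.28 FPKM, and its locus is the same as that of GAS5, which was left out by name. The library kit marks strand, but whether the counting used it is not stated in the sources used here, so reads of the 2 cannot be told apart with certainty. The most abundant antisense members were OIP5-AS1 (chr15:41576201-41591795), a conserved RNA known to bind miR-7, and OTUD6B-AS1, at 36.0 and 25.9 FPKM (NR_110439) beside 33.7 and 18.6 for the deubiquitinase gene OTUD6B. OIP5 itself measured 37.1 and 30.7 FPKM.

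Antisense transcripts were then set beside the gene they are named after, a comparison added after the values were seen. A pair was kept where the gene also had a mean of at least 0.5 FPKM, summed over its coding transcripts. A further 12 compared transcripts named as antisense, USP2-AS1 among them, had no such gene. In the 44 pairs kept, 11 were higher on both sides and 14 were lower on both. The other 19 moved in opposite directions (11 with the antisense transcript higher, 8 with it lower). Pearson's r of the changes was 0.29 and Spearman's rho 0.23 across the 44 pairs, which share libraries and in part genes. Of these pairs, 3 had a coding gene at least 2-fold higher, and their antisense transcripts were higher to unequal degrees. BHLHE40, a HIF-induced repressor of transcription, measured 4.18 FPKM in normoxia and 30.8 in hypoxia, whereas BHLHE40-AS1 measured 0.605 and 0.912. The loci of these 2 lie 72911 bases apart, against a median gap of 141.5 bases over the 44 pairs. AFF1, of a transcription elongation complex, measured 1.91 and 4.01 FPKM, and AFF1-AS1 measured 0.731 and 1.37. MIDEAS measured 2.02 and 4.77 FPKM and MIDEAS-AS1 0.643 and 0.815. In 37 of 44 pairs the antisense transcript was at the lower level per length.

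Divergent transcripts (-DT), which start head to head with a coding gene, gave a like picture over 66 pairs kept by the same rule, which cover 57 genes. Both sides were higher in 16 and lower in 23, and the sides differed in direction in 27, with Pearson's r at 0.34 and Spearman's rho at 0.25. The 4 divergent transcripts called went in the same direction as their gene. CNN3-DT measured 7.82 and 21.6 FPKM beside the actin-binding calponin gene CNN3 at 513 and 839. AFDN-DT measured 0.202 and 0.855 FPKM beside AFDN, the gene of the junction protein afadin, at 18.4 and 35.3. TMCC1-DT measured 0.592 and 1.40 FPKM beside TMCC1 at 2.60 and 3.12. None of these coding genes reached the 2-fold limit.

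**Figure D4:**
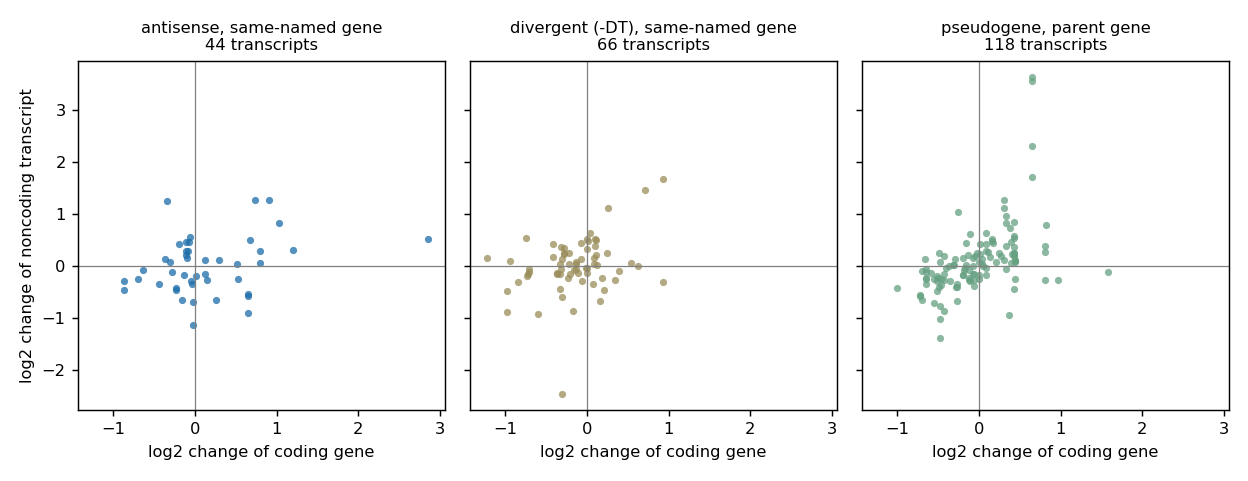
Change in hypoxia (log2 scale with 0.1 FPKM added) of noncoding transcripts (y axis) against that of the coding gene they are named after (x axis), for 44 antisense, 66 divergent and 118 pseudogene transcripts, 1 point each. The single antisense point at the far right is BHLHE40-AS1, and the 4 highest pseudogene points are the FKBP9P1 transcripts.

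Most snoRNA host genes were lower in hypoxia, and microRNA host genes were divided. With FPKM summed over the transcripts of a gene, 12 snoRNA host and SNHG genes were compared, and 10 were lower at a median change of -0.74, 2 of them (SNHG9 and SNHG15) by at least 2-fold. Of the 18190 compared transcripts of the whole table, 10437 were lower, and 3.69% were at least 2-fold lower. Whole-table values in this paragraph are of single transcripts and not of gene sums. The 11 other hosts, of microRNAs, had 6 lower and 5 higher at a median of -0.01. With both conditions scaled to the same FPKM sum, 9 of the 12 and 3 of the 11 were lower, at medians of -0.52 and 0.21. The whole table lay at a median of -0.09 (0.13 when scaled). The difference between the 2 kinds of host was not tested. FTX, counted here with the snoRNA hosts since it stood on the list used, is better known as a microRNA host.

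SNHG15 (chr7:45022627-45026259), a short-lived host RNA, measured 14.2 FPKM in normoxia and 4.41 in hypoxia (3.16-fold lower). SNHG9 (chr16:2014997-2015505), next to the ribosomal protein gene RPS2, measured 1.45 and 0.155 FPKM, the lowest change of the hosts, at a level near the added 0.1 in hypoxia. DANCR, named for holding back differentiation (chr4:53578621-53580305), measured 130 and 67.9 FPKM, just short of 2-fold. SNHG16 (chr17:74553846-74561430) went from 158 to 88.6 FPKM over its 4 transcripts, all lower, and SNHG17, SNHG11 and SNHG10 measured 5.13 and 2.57, 2.82 and 1.46, and 13.2 and 8.36. SNHG5 (chr6:86386725-86388451), one of the most abundant hosts, did not share this, at 256 and 251 FPKM. SNHG18 was higher, at 3.89 and 5.36 FPKM.

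SNHG8 (chr4:119199917-119200978) shows how a single transcript can differ from its gene. Its main transcript NR_034011 measured 265 FPKM in normoxia and 192 in hypoxia, and the 3 transcripts together 312 and 222, 1.41-fold lower. The minor transcript NR_034010 was listed at 0.0013 and 1.81 FPKM, the highest change of any member (4.24), yet it made up 0.816% of the gene in hypoxia. How Cuffdiff divides reads between overlapping transcripts bears on such a value, and its part was not tested.

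Among microRNA hosts, MIR17HG, the precursor of the proliferation-linked miR-17-92 cluster (chr13:92000074-92006829), measured 9.29 FPKM in normoxia and 3.88 in hypoxia over its 2 transcripts (2.36-fold lower). MIR9-3HG, a host of miR-9 (chr15:89921273-89941718), measured 0.334 and 0.847 FPKM (2.18-fold higher), near the lower limit of the comparison. The miR-155 host MIR155HG measured 1.56 and 2.21 FPKM, and MIR23AHG, which carries miR-23a, 5.30 and 5.18. These levels are of spliced host RNA and say nothing of the mature microRNAs.

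**Figure D5:**
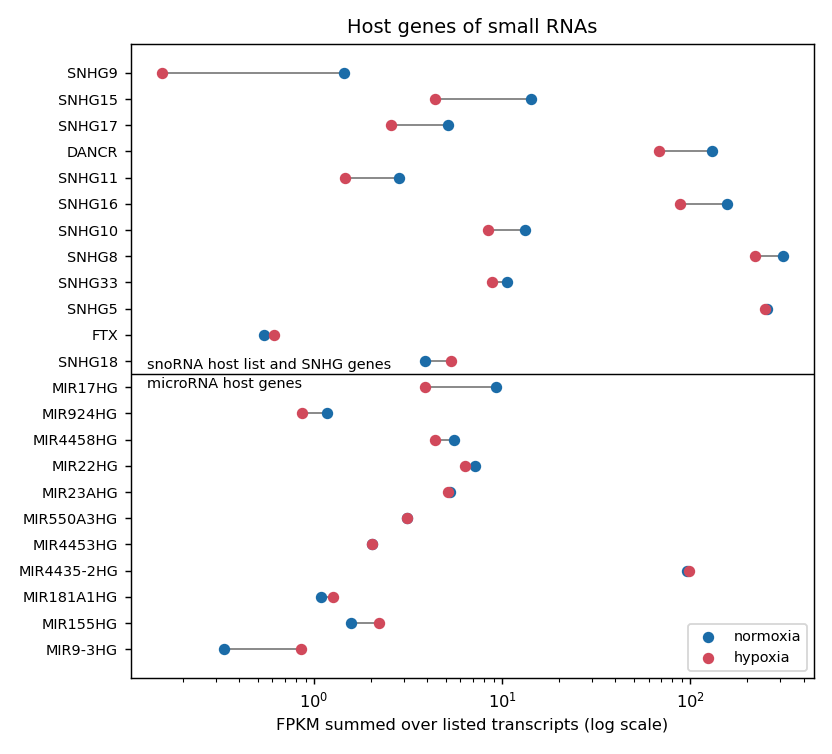
FPKM summed over the listed transcripts (x axis, log scale) in normoxia (blue) and hypoxia (red) of the 23 host genes compared, 1 row each. The 12 snoRNA host and SNHG genes stand above the line and the 11 microRNA hosts below it, each set ordered by change. Red lies to the left of blue for 10 of the 12 and 6 of the 11.

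All 32 small RNA transcripts passed the limit of 0.5 FPKM, with 1 called higher (3.13%) and 6 lower (18.8%), against 3.7% and 3.69% of the whole table. Their FPKM is uncertain, because they are short (14 members lie in loci under 300 bases) and most mature small RNAs have no poly(A) tail, for which the libraries were selected. The most abundant members of all were RMRP, the RNA of the RNase MRP enzyme (chr9:35657748-35658015), at 6345 and 5529 FPKM, and RPPH1, the RNA of RNase P (chr14:20811230-20811570), at 2559 and 1723. Both were lower in hypoxia by less than 1.5-fold, a direction that turns for RMRP when the conditions are scaled to the same FPKM sum. RNU11, of the minor spliceosome, named after its values were seen, measured 478 and 243 FPKM, just short of 2-fold.

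SNAR-I (chr3:190595719-190595839) and SNAR-D (chr19:50643459-50643577) are of the small NF90-associated RNAs, a family of near-identical copies that share reads. SNAR-I measured 6.60 FPKM in normoxia and 0.457 in hypoxia, and SNAR-D measured 9.77 and 2.44. MIR5188 (chr12:125400093-125400205), whose mature sequence is given above, measured 2.56 and 10.1 FPKM (3.82-fold higher).

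In the TAF1D cluster, SNORA40 measured 177 FPKM in normoxia and 81.8 in hypoxia, SNORA25 measured 3.79 and 0.747, and SNORA32 measured 6.56 and 2.96. SNORA18 stood at 81.0 and 82.1 FPKM, SNORA8 at 137 and 157, and SNORA1 at 3.77 and 5.70. Neighbours in the same cluster thus differed in direction, while TAF1D, which encodes a subunit of an RNA polymerase I factor, measured 51.4 and 45.4 FPKM. SNORA18, SNORA8 and SNORA1, none of them lower, have the ACA 3 bases from their end. SNORA32, which was called lower, has it as well, whereas SNORA40 and SNORA25, also called lower, do not. A link between this ending and the change was not tested.

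In 14 pairs, found after the values were seen, a snoRNA lay in the locus of another member, and the 2 sides differed in both ways. In 9 pairs from 5 snoRNA hosts the hosts' changes ran from -1.66 to -0.50, and the snoRNA was less lowered than its host in all 9. In the other 5 pairs, whose second gene is an antisense, pseudogene or intergenic RNA with a change from -0.27 to 0.09, the snoRNA was lowered more in all 5. SNORA47 measured 7.13 FPKM in normoxia and 2.50 in hypoxia beside ZBED3-AS1 at 1.24 and 1.32, and SNORA7B 279 and 182.2 beside RPL32P3 at 1.05 and 1.02. SNORA22, at 408 and 277 FPKM, lay in 1 locus with 3 such genes. In the locus of SNHG15, SNORA9 measured 37.7 FPKM in normoxia and 34.5 in hypoxia. In that of SNHG17, SNORA71A measured 1342 and 1264 FPKM. SNORA26, within DANCR, measured 91.4 and 61.4 FPKM. The FPKM of these snoRNAs carries the same uncertainty as that of the other small RNAs.

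Pseudogenes had 9 transcripts called higher and 4 lower of 196 compared (4.59% and 2.04%, against 3.7% and 3.69% of the whole table). With a pseudocount of 1 FPKM 3 were higher and 1 lower, again with no share of the whole table at that setting. Reads from a pseudogene and its parent can be nearly identical, and how multiply mapping reads were shared is not stated in the sources used here, so each value in this class is uncertain to that extent. FKBP9P1 (chr7:55748767-55772260), a partial copy of FKBP9, the gene of a protein-folding isomerase of the endoplasmic reticulum, held 4 of the 9. Its locus sum went from 2.45 FPKM in normoxia to 18.9 in hypoxia. Its transcripts measured 0.404 and 6.14 FPKM (NR_027342, 12.4-fold), 0.496 and 6.85 (NR_027339, 11.7-fold), 0.141 and 1.09 (NR_027340) and 1.41 and 4.84 (NR_003949). All 4 were higher, but their shares shifted, with NR_003949 at 57.6% of the locus in normoxia and 25.6% in hypoxia. The parent FKBP9 measured 14.2 and 22.2 FPKM.

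GOLGA2P5, a copy of the Golgi matrix gene GOLGA2 picked out after its values were seen, had both listed transcripts called higher, the main one at 3.15 FPKM in normoxia and 6.90 in hypoxia, beside 10.2 and 12.7 for the parent. On the lower side, SBDSP1 (chr7:72299952-72307978) is a copy of SBDS, a ribosome maturation factor. Its transcript NR_024111 measured 30.0 and 11.4 FPKM, and the 4 transcripts together 48.5 and 22.2, while SBDS measured 99.9 and 71.9. H2BP1, a histone H2B pseudogene (chr1:120906034-120914842), measured 1.84 and 0.778 FPKM, and FAM86C2P (chr11:67559238-67572807) 1.34 and 0.559. The most abundant pseudogene members were ANXA2P2, of the annexin A2 gene (chr9:33624223-33625532), at 111 and 108 FPKM, and HNRNPA1P33 (chr10:47096454-47151400), at 106 and 80.8 beside 315 and 304 for the RNA-binding protein gene HNRNPA1.

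Pseudogene and parent moved in the same direction in 90 of 118 pairs, the highest such share of the 3 kinds of pair. Both were higher in 43 and lower in 47, the pseudogene alone was higher in 17 and the parent alone in 11. The parent was the gene left when the ending P and any number are removed from the symbol, at a mean of at least 0.5 FPKM. A further 100 compared transcripts annotated as pseudogenes had no such pair. Some of the 118 paired transcripts, such as FKBP1AP1, are classed here as antisense. The 118 pairs cover 81 parent genes, so several pairs share a parent. Across these pairs, which share libraries and may share reads, Pearson's r of the changes was 0.49 and Spearman's rho 0.59. The pseudogene was at the lower level per length in 110 pairs. In 0 of the 118 pairs did both sides reach 2-fold, and the parent did so in only 1 pair.

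The nearest listed coding locus with a mean of at least 0.5 FPKM was also looked up for 653 of the 655 members, after the values were seen. Of the 32 members called higher, 5 had a neighbour at least 2-fold higher (15.6%), against 10 of 594 members in neither group (1.68%) and 3.13% of 10379 coding loci. These 5 members lie beside 4 coding genes. CAND1.11 beside ADM and the LUCAT1 transcripts near ARRDC3 are given above. LINC01686 measured 0.447 and 1.76 FPKM near RGS16, a regulator of G protein signalling, at 8.64 and 31.3, and OLMALINC lay 8745 bases from SCD, at 165 and 352. Of the 27 members called lower, 0 had a neighbour called in either direction. At least 2-fold lower were 2.46% of the coding loci and 1.52% of the neighbours of members in neither group. At such shares 27 members are too few to show a difference. For UCA1 and LINC01559 the nearest such loci, TPM4 and EMP1, lay 231186 and 153897 bases away and measured 131 and 135, and 21.9 and 25.5 FPKM.

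The promoter letters shown at the start were searched in all RefSeq promoters. ACGTG or GCGTG stood on either strand in 48.4% of 27305 promoters. Of the compared members, 233 genes had a promoter in the table, and 57.9% of these held either motif, against 63.8% of 9099 promoters of compared coding genes. The share was 7 of 11 among genes called higher, 3 of 6 among those called lower and 12 of 21 among host genes. A gene was counted as called if any of its transcripts was. SNHG8, with a match, counted as higher through a minor transcript, although its summed FPKM was lower. SNHG16 and NUP50-DT, both with a match, counted as lower through minor transcripts, and their sums were less than 2-fold lower. CNN3-DT and MANCR, both higher in hypoxia, held neither, as did MIR17HG, which was lower. TMCC1-DT held 4 matches and LINC01686 held 2. A match describes these letters in this window and not a binding site.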

How the data were processed

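Poly(A)-selected stranded libraries of SQ20B cells, 4 in normoxia and 4 in hypoxia, were aligned by the authors with STAR (2.3.0.1) to hg19 with RefSeq annotation and quantified with Cuffdiff of Cufflinks (2.1.1) at standard parameters. The deposited table holds 1 FPKM value per transcript and condition, the authors' value over 4 replicates. Its columns of the authors' own log2 fold changes, test statistics, p-values and q-values were not used. Values and read counts of single libraries were not analysed here, so depth is unknown and no interval or detection limit is given. The planned limma test needs values per library and was replaced by a description.

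Names came from RefSeq (GRCh38.p14) by identifier, or from GENCODE by position (reciprocal overlap of at least 80%). Coordinates are the table's (hg19), counted from 1, except those of RefSeq promoters. Classes were assigned in the order small RNA, host gene, antisense, pseudogene, intergenic. Named are the 3 highest and 3 lowest called transcripts and the 2 most abundant of each class, the partners of antisense transcripts, and a hypoxia-linked list; other names are said to be chosen later. Members, lists and named rules were chosen with earlier results of these data known. The pseudocount was 0.1 FPKM and the limit a mean of 0.5. Python 3.11.15, numpy 2.4.6, pandas 2.3.3 and matplotlib 3.10.9 were used. Alternatives were other pseudocounts (0.01, 1), limits, scalings, sums over a locus, fold limits and subsets.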

Additional observations from a re-analysis of the deposited data

How the results depend on the processing

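No paired analysis was possible because each condition has 1 value, and no replicate could be left out for the same reason. A median was taken as moved where it differed by over 0.1 on the log2 scale, and a count or a named change where it differed by over 1.5-fold. Against 32 members called higher and 27 lower, a pseudocount of 1 FPKM gave 14 and 11, and a limit of 1.5-fold gave 75 and 73. Without a limit on FPKM 65 were higher, and raising the limit to 1 FPKM left 20 higher. No share of the whole table is set beside the counts at other pseudocounts or FPKM limits, here or by class. Those counts describe the members alone. With both conditions scaled to equal FPKM sums, which adds about 0.23 to a log2 change, 54 were higher and 10 lower (6.46% and 1.96% of the whole table), and the medians were 0.25 over all members, 0.27 in antisense, -0.15 in host gene, 0.26 in pseudogene, -0.12 in small RNA and 0.30 in intergenic transcripts. The host gene median of -0.38 was -0.22 at a pseudocount of 1, -0.27 when centred on the median of coding transcripts, and -0.26 with FPKM summed by locus. In that last setting SNHG8 NR_034010, the sole named transcript to change sign among those called, stood at -0.50, the value of its locus. The other 76 of these counts over all members and class medians stayed within the margins, and 0 changed sign. Counts of calls by class depended on the pseudocount: at 1 FPKM they were 1 higher and 0 lower in antisense, 1 and 3 in host gene, 3 and 1 in pseudogene, 1 and 5 in small RNA, and 8 and 2 in intergenic transcripts. Leaving out loci that overlap a coding locus removed none by construction. The settings without genes coding in the current annotation and without alternate haplotypes and unplaced contigs were added after the data were seen. The first of these could leave out only members named through their identifier. Low FPKM and the pseudocount limit the changes of scarce transcripts most.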
